A study of Homo sapiens with 6 samples.

Results

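Keratin genes encode the intermediate filament proteins of epithelial cells. The 7 genes described here, KRT7, KRT8, KRT18, KRT19, KRT20, KRT23 and KRT80, were selected by symbol: each Ensembl identifier in the tables was matched to GENCODE release 29, and the row carrying one of these symbols was read in every library. All 7 were found among the 19655 genes listed, and 6 of them had a mean of at least 0.5 FPKM (fragments per kilobase of transcript, corrected for library size) and were tested with 12756 genes in all. KRT20 was under this limit. The rule that selects them uses symbols and no measured value, but the members were chosen with earlier results of these data known.

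The libraries came from SW480, an established human colorectal cancer cell line. The cells had been transduced with lentiviral pLKO.1 vectors and selected with puromycin. The control vector encoded a nontargeting hairpin (shNT), and 2 others, shPcyt2-1 and shPcyt2-2, each encoded a different hairpin to PCYT2, with 2 libraries in each of the 3 groups. PCYT2 is the rate-limiting enzyme of the ethanolamine branch of phospholipid synthesis, and the comparison addressed how the transcriptome differed once it was depleted. All groups shared the vector and the puromycin selection. The sources used here do not state that any population was a single clone or that the 2 libraries of a group came from separate cultures. The p-values therefore measure the spread between these libraries, which may be technical. Both hairpin groups were compared with the same 2 shNT libraries, so their comparisons share controls.

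A keratin filament is built from pairs of 1 type I and 1 type II keratin, and each chain needs its partner to form a stable filament. In simple epithelia such as the lining of the colon, the type II keratin KRT8 pairs with the type I keratins KRT18, KRT19 and KRT20, and KRT7 is a type II keratin better known from ductal and glandular epithelia. These filaments connect at the cell surface to desmosomes and hemidesmosomes, where linker proteins such as plakins hold them.

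The type II members lie on chromosome 12 of GRCh38: KRT80 at 52168996 to 52192000, KRT7 at 52232520 to 52252186, and KRT8 at 52897187 to 52949954. KRT18, a type I gene, lies beside KRT8 on chromosome 12, at 52948871 to 52952901. The other type I members lie on chromosome 17, KRT20 at 40875941 to 40885227, KRT23 at 40922696 to 40937634 and KRT19 at 41523617 to 41528308. KRT7 and KRT18 are on the plus strand and the other 5 on the minus strand. All are protein-coding genes.

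The start of the helical rod gives an example of how the coding sequences of the type I members differ from that of KRT18. It holds the longest run of bases that KRT18 shares with KRT19, 17 bases. Other pairs share longer runs, such as 38 bases between KRT19 and KRT17 and 29 bases between KRT19 and KRT23. The stretches below are 60 coding bases each, read from the GENCODE release 29 transcripts, 5′ to 3′ along the gene's own strand, with capitals at the bases that differ from KRT18. KRT17 is shown because it was the most abundant other type I keratin. Each stretch lies in 1 coding exon, on chromosome 12 at 52949413 to 52949472 (plus strand) for KRT18, and on chromosome 17 (minus strand) at 41527949 to 41528008 for KRT19, 40884917 to 40884976 for KRT20, 40936329 to 40936388 for KRT23 and 41624199 to 41624258 for KRT17:
KRT18: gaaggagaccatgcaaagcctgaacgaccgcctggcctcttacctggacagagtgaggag
KRT19: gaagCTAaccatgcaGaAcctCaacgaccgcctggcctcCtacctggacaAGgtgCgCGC
KRT20: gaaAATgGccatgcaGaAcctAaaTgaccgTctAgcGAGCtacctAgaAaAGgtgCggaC
KRT23: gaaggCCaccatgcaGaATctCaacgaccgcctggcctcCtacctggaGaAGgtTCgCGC
KRT17: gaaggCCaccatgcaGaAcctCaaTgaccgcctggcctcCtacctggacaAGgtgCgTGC
KRT19 and KRT17 differed from KRT18 at 13 of the 60 bases, KRT23 at 15 and KRT20 at 20.

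Over the whole coding sequence, windows of 50 bases were rarely shared between the members and other keratin coding genes. The largest share was 1.22% of the windows of KRT80, which also occur in KRT8. More windows were shared with processed pseudogenes. Of the windows of KRT8, 48.4% also occur in noncoding keratin transcripts, from 33 pseudogenes, and of those of KRT18 38.8% do, from 43 pseudogenes. The shares were 2.09% for KRT19, 1.22% for KRT80, 0.0736% for KRT7 and 0 for KRT20 and KRT23. How the authors' counting treated reads that match several places is not given in the sources used here, so the levels of KRT8 and KRT18 are uncertain in this respect. Of the pseudogenes of KRT8, KRT18 and KRT19, 1 was listed in the tables, KRT18P55, at 0.0822 FPKM or less in every library. KRT8 and KRT18 also share 525 exonic bases on opposite strands, 7.63% of the exonic bases of KRT8 and 16.3% of those of KRT18. KRT7 shares 282 exonic bases with KRT7-AS and KRT23 shares 186 with AC004231.1, both on the opposite strand. Whether the counting used strand is not given, so reads from these overlaps cannot be told apart.

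PCYT2 (ENSG00000185813, chromosome 17, 81900965 to 81911464) was measured first as a check of the labels. It was at 11.6 and 13.8 FPKM in the shNT libraries, 7.11 and 7.36 FPKM with shPcyt2-1, and 6.71 and 6.18 FPKM with shPcyt2-2. No knockdown library reached the level of either control. With shPcyt2-1 57.0% of the shNT level was left (log2 fold change -0.73, standard error 0.10, limma adjusted p = 0.00205). For shPcyt2-2 the figure was 50.8% (log2 fold change -0.88, standard error 0.10, limma adjusted p = 0.00261). The second hairpin minus the first, -0.15 on the log2 scale (95% confidence interval -0.37 to 0.08), did not pass the test (limma adjusted p = 0.309).

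The 3 keratins of simple epithelia, KRT8, KRT18 and KRT19, were among the most abundant transcripts in these cells, and with shPcyt2-2 they fell to between 73.1% and 75.2% of shNT. With shPcyt2-1 they were at 96.3% to 104% of shNT and did not pass the test. KRT7, at a far lower level, was 2.08 times shNT with shPcyt2-1 and 0.931 times with shPcyt2-2. KRT80 was 1.24 times shNT with shPcyt2-1. KRT23 changed with neither hairpin by the test, and KRT20 was barely listed. Tested directly against each other, the hairpins differed in KRT7, KRT8, KRT18 and KRT19.

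**Figure D1:**
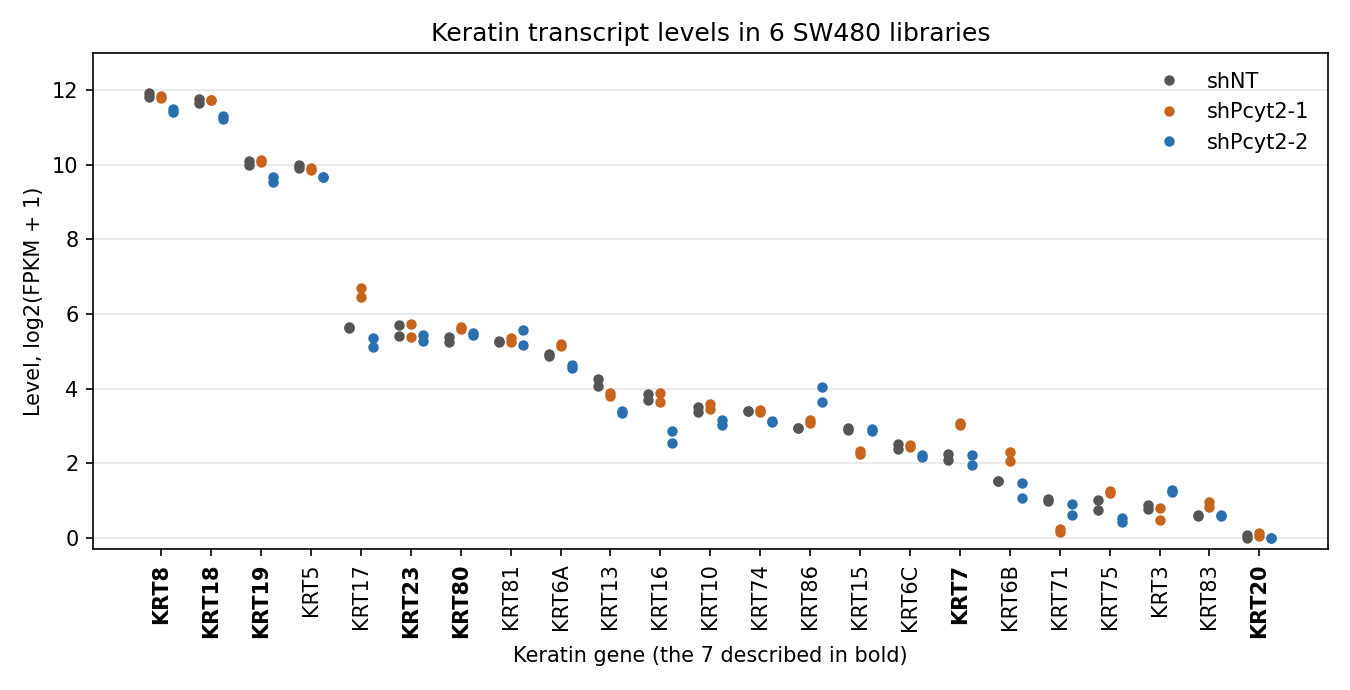
Level of each keratin gene as log2(FPKM + 1), with 1 point per library, for the 7 genes described (bold) and the 16 other keratin genes at a mean of at least 0.5 FPKM, ordered by the mean of the shNT libraries. KRT8 and KRT18 stand highest in every group, KRT19 and KRT5 follow at about a level of 10, and KRT20 lies at or next to 0.

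In the shNT libraries KRT8 averaged 3731 ± 183 FPKM (SD, n = 2), rank 2 of all genes listed, and KRT18 averaged 3364 ± 173 FPKM, rank 4. KRT19 averaged 1055 ± 54.03 FPKM, rank 49. No mitochondrial protein-coding gene was listed (0 in all libraries), so that these ranks leave those abundant transcripts out. KRT23 averaged 46.6 ± 6.87 FPKM, KRT80 39.0 ± 2.33 FPKM and KRT7 3.50 ± 0.409 FPKM (all SD, n = 2). The order KRT8, KRT18, KRT19, KRT23, KRT80, KRT7, KRT20 held in the shNT group with no overlap between neighbours, although the lowest KRT23 library (41.8 FPKM) was close to the highest KRT80 library (40.7 FPKM). In both hairpin groups KRT80 averaged above KRT23 and the libraries of the pair overlapped, while the other neighbours kept apart. With shPcyt2-2 the ranks of KRT8, KRT18 and KRT19 were 8, 10 and 71.

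KRT8 (ENSG00000170421), the type II partner in simple epithelial filaments, was at 3602 and 3861 FPKM in the shNT libraries, 3540 and 3649 FPKM with shPcyt2-1, and 2734 and 2874 FPKM with shPcyt2-2. Both shPcyt2-2 libraries lay below the other 4, and the shPcyt2-1 libraries overlapped those of shNT. KRT8 fell by 0.41 on the log2 scale with shPcyt2-2 (standard error 0.055, limma adjusted p = 0.00483), to 75.2% of shNT. This call was lost with no expression limit and without the first shPcyt2-2 library. With shPcyt2-1 the value was -0.053 (95% confidence interval -0.18 to 0.07, limma adjusted p = 0.499).

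KRT80 (ENSG00000167767), a type II keratin found in many epithelia and often placed near desmosomes, was at 37.4 and 40.7 FPKM with shNT, 47.5 and 49.0 FPKM with shPcyt2-1, and 42.0 and 44.1 FPKM with shPcyt2-2. The 3 groups did not overlap, with shNT lowest and shPcyt2-1 highest. KRT80 rose with shPcyt2-1 by 0.30 on the log2 scale (standard error 0.069, limma adjusted p = 0.0144), but after median-ratio scaling of the libraries the value was 0.23 and no longer passed (limma adjusted p = 0.0727). With shPcyt2-2 the value was 0.14 (95% confidence interval -0.016 to 0.30, limma adjusted p = 0.200).

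KRT7 (ENSG00000135480) was at 3.79 and 3.21 FPKM with shNT, 7.10 and 7.45 FPKM with shPcyt2-1, and 2.85 and 3.66 FPKM with shPcyt2-2. Both shPcyt2-1 libraries lay above the other 4, while the shPcyt2-2 libraries overlapped shNT. KRT7 rose with shPcyt2-1 by 0.88 on the log2(FPKM + 1) scale (standard error 0.12, limma adjusted p = 0.00198), a scale that understates the change of a gene at so low a level. With shPcyt2-2 the value was -0.083 (95% confidence interval -0.35 to 0.19, limma adjusted p = 0.676).

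KRT18 (ENSG00000111057), the main type I partner of KRT8, was at 3242 and 3487 FPKM with shNT, 3437 and 3394 FPKM with shPcyt2-1, and 2396 and 2522 FPKM with shPcyt2-2. The shPcyt2-2 libraries were again below the other 4, which overlapped each other. KRT18 fell by 0.45 on the log2 scale with shPcyt2-2 (standard error 0.055, limma adjusted p = 0.00318), to 73.1% of shNT. Its call was likewise lost with no expression limit and without the first shPcyt2-2 library. With shPcyt2-1 the log2 value was 0.023 (95% confidence interval -0.10 to 0.15, limma adjusted p = 0.785).

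KRT19 (ENSG00000171345), a short type I keratin that lacks most of the tail domain, was at 1017 and 1093 FPKM with shNT, 1077 and 1119 FPKM with shPcyt2-1, and 741 and 809 FPKM with shPcyt2-2. It showed the same layout, with both shPcyt2-2 libraries lowest and the rest overlapping. KRT19 fell by 0.44 on the log2 scale with shPcyt2-2 (standard error 0.062, limma adjusted p = 0.00546), to 73.5% of shNT. Without the first shPcyt2-2 library or with no expression limit, this call too was lost. The value with shPcyt2-1 was 0.058 (95% confidence interval -0.082 to 0.20, limma adjusted p = 0.510).

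KRT23 (ENSG00000108244), a type I keratin known from gastrointestinal and pancreatic cancer cells, was at 41.8 and 51.5 FPKM with shNT, 51.9 and 41.1 FPKM with shPcyt2-1, and 42.3 and 37.5 FPKM with shPcyt2-2. The libraries of one group were as far apart as those of different groups, and all groups overlapped. The log2 values of -0.0059 with shPcyt2-1 (95% confidence interval -0.29 to 0.28) and -0.21 with shPcyt2-2 (95% confidence interval -0.50 to 0.072) did not pass the test, with limma adjusted p = 0.978 and 0.281. With 1 library left out, the value with shPcyt2-2 ranged from -0.36 to -0.065.

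KRT20 (ENSG00000171431), a type I keratin that marks differentiated cells of the intestinal lining, was listed at 0.0522 FPKM in 1 shNT library and at 0.0337 and 0.0950 FPKM in the shPcyt2-1 libraries. The other 3 libraries, both of shPcyt2-2 among them, did not list it above 0. At such levels no difference could be read, and the gene was left untested.

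**Figure D2:**
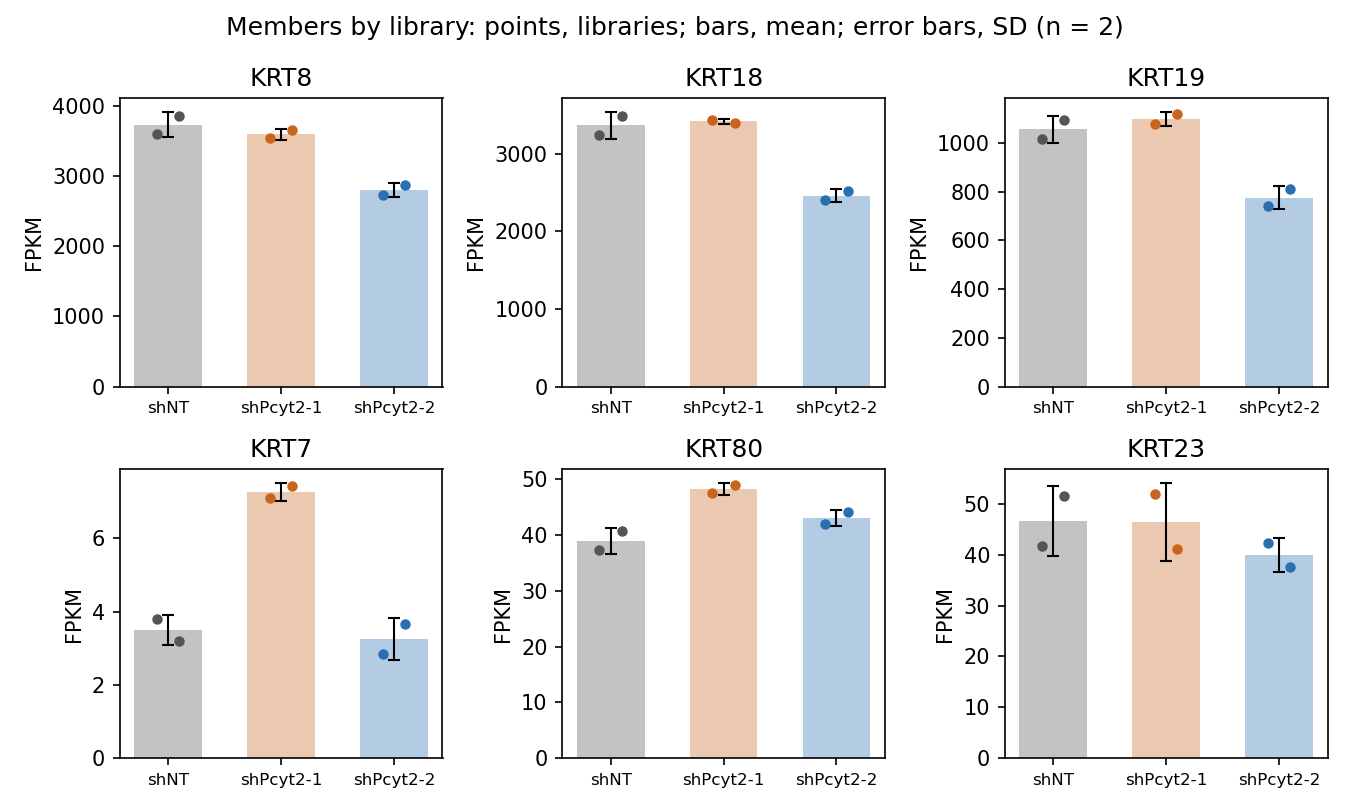
FPKM of the 6 tested members by group, each panel with its own axis from 0. Points are libraries, bars the mean and error bars the SD of 2 libraries. KRT8, KRT18 and KRT19 are lowest in both shPcyt2-2 libraries, KRT7 is highest in both shPcyt2-1 libraries, KRT80 is higher in all 4 knockdown libraries than with shNT, and KRT23 overlaps throughout.

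By the test, 2 of the 6 tested members rose with shPcyt2-1 (KRT7 and KRT80) and none fell, beside 26.7% of all tested genes called in that comparison, 16.5% higher and 10.1% lower. After median-ratio scaling the split of all called genes turned, from 2109 higher and 1291 lower to 1475 and 1714. The count of 2 is a share of the members near that background. After median-ratio scaling only KRT7 was called, and without either shPcyt2-1 library KRT80 was no longer called. With shPcyt2-2, 3 of the 6 fell (KRT8, KRT18 and KRT19) and none rose, beside 12.4% of all tested genes called, 7.69% higher and 4.74% lower. Scaling turned that split too, from 981 higher and 604 lower to 760 and 848. With no expression limit none of the 3 was called (limma adjusted p = 0.0799 for KRT8, 0.0712 for KRT18 and 0.0684 for KRT19), and 124 genes were in all. Without the first shPcyt2-2 library, none of the 3 remained past the threshold (limma adjusted p = 0.0655 for KRT8, 0.0528 for KRT18 and 0.0676 for KRT19), though all 3 had an unadjusted p under 0.05. Their log2 values there were -0.38, -0.41 and -0.38, and the calls over all genes in that comparison went from 1585 to 125. The median log2 fold change of the 6 was 0.041 with shPcyt2-1 and -0.31 with shPcyt2-2, where that of all tested genes was 0.067 and 0.044. In these bulk samples, fewer cells that express a keratin and less of its RNA per cell cannot be told apart.

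Tested directly, the hairpins differed in 4 of the 6 members, beside 27.1% of all tested genes called, 12.9% higher and 14.2% lower with shPcyt2-2. KRT7 was lower with shPcyt2-2 than with shPcyt2-1 by 0.97 on the log2 scale (limma adjusted p = 0.000783), a value of -0.97 with a standard error of 0.12. The values were -0.36 for KRT8, -0.47 for KRT18 and -0.50 for KRT19, with limma adjusted p = 0.00210, 0.000589 and 0.000758. KRT80, at -0.16 (95% confidence interval -0.32 to -0.0049, limma adjusted p = 0.115), and KRT23, at -0.21 (95% confidence interval -0.49 to 0.078, limma adjusted p = 0.255), were not called. Across all tested genes the median of this difference was -0.023.

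When the 4 knockdown libraries were pooled against shNT, limma called 0 of the 6 members, and 1, KRT80, had an unadjusted p under 0.05. In that comparison 0.00784% of all tested genes were called. The log2 values were 0.40 for KRT7 and 0.22 for KRT80, and they were -0.23 for KRT8, -0.21 for KRT18, -0.19 for KRT19 and -0.11 for KRT23. With 1 library left out, these ranged from 0.23 to 0.61 for KRT7, -0.30 to -0.12 for KRT18 and -0.29 to -0.088 for KRT19. The difference between the hairpins enters the error of the pooled fit. The mean of both hairpins was taken instead from the fit with 3 groups. There 5 members were called, KRT7 and KRT80 higher and KRT8, KRT18 and KRT19 lower. This was beside 16.8% of all tested genes, 10.9% higher and 5.85% lower. Each of the 5 was called against shNT with a single hairpin only. KRT7, KRT8, KRT18 and KRT19 also differed between the hairpins, so their means do not stand for a change shared by both.

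The KRT8 to KRT18 ratio in FPKM was 1.11 in both shNT libraries, 1.03 and 1.08 with shPcyt2-1, and 1.14 in both shPcyt2-2 libraries. The 3 groups did not overlap in this ratio, which was lowest with shPcyt2-1. KRT19 to KRT18 was 0.314 ± 0.0000749 with shNT, 0.322 ± 0.0114 with shPcyt2-1 and 0.315 ± 0.00816 with shPcyt2-2 (SD, n = 2). The ratios of KRT19 to KRT18 overlapped between groups. Over the 6 libraries, Pearson's r of log2(FPKM + 1) was 0.992 between KRT18 and KRT19 and 0.983 between KRT8 and KRT18, but 0.447 between KRT7 and KRT8 and -0.0095 between KRT80 and KRT8. These correlations describe 6 libraries that fall into 3 groups.

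The 7 genes summed to 7943 and 8536 FPKM with shNT, 8161 and 8259 FPKM with shPcyt2-1, and 5959 and 6290 FPKM with shPcyt2-2. As a share of the FPKM summed over all genes, with identifiers of identical values counted once (383300 to 389194 FPKM per library), this was 2.14% with shNT, 2.12% with shPcyt2-1 and 1.60% with shPcyt2-2. KRT8, KRT18 and KRT19 alone held 86.5%, 86.3% and 85.1% of the FPKM of all keratin genes in these groups. The sum thus follows these 3 genes, and the change of KRT7, which stood at 0.0941% of the FPKM of KRT8 with shNT and 0.202% with shPcyt2-1, does not show in it.

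The other keratin genes put these values in context. Of 48 other protein-coding keratins, 37 were listed and 16 had a mean of at least 0.5 FPKM. KRT5, the type II keratin of basal cells in stratified epithelia, was the most abundant, at 957 and 1026 FPKM with shNT, 924 and 962 FPKM with shPcyt2-1, and 819 and 810 FPKM with shPcyt2-2. The shPcyt2-2 libraries were below the other 4, and KRT5 fell there by 0.28 on the log2 scale (limma adjusted p = 0.0151), a call that was lost without either shPcyt2-2 library. KRT14, its usual type I partner, was under the limit at a mean of 0.116 FPKM. KRT8 and KRT5 share no window of 50 coding bases, and their longest common run is 26 bases.

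KRT17, a type I keratin induced in wounded and proliferating epithelia, was at 49.8 and 48.3 FPKM with shNT, 87.1 and 102 FPKM with shPcyt2-1, and 33.8 and 40.1 FPKM with shPcyt2-2. The groups did not overlap. It rose by 0.93 with shPcyt2-1 (limma adjusted p = 0.000806) and fell by 0.40 with shPcyt2-2 (limma adjusted p = 0.0312). The call with shPcyt2-2 was lost without either shNT library and without the first shPcyt2-2 library, while that with shPcyt2-1 held with each library left out. KRT6A, KRT6B and KRT16, further keratins of activated epidermis, varied with the hairpin too. KRT6A rose by 0.27 with shPcyt2-1 (limma adjusted p = 0.0209, but 0.101 after median-ratio scaling) and fell by 0.31 with shPcyt2-2 (limma adjusted p = 0.0231). The first call was lost without the first shNT library or either shPcyt2-1 library, and the second without the second shNT library or either shPcyt2-2 library. KRT6B rose by 0.66 with shPcyt2-1 (limma adjusted p = 0.0138), a call that was lost without the second shNT library or the first shPcyt2-1 library. KRT16 fell with shPcyt2-2, from 13.4 and 11.99 FPKM with shNT to 4.81 and 6.31 FPKM, by 1.07 on the log2 scale (limma adjusted p = 0.00315), while shPcyt2-1 had 11.5 and 13.8 FPKM. KRT6A, KRT6B and KRT6C are near copies of each other, as are KRT16 and KRT17 in part, so reads could be split between them.

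**Figure D3:**
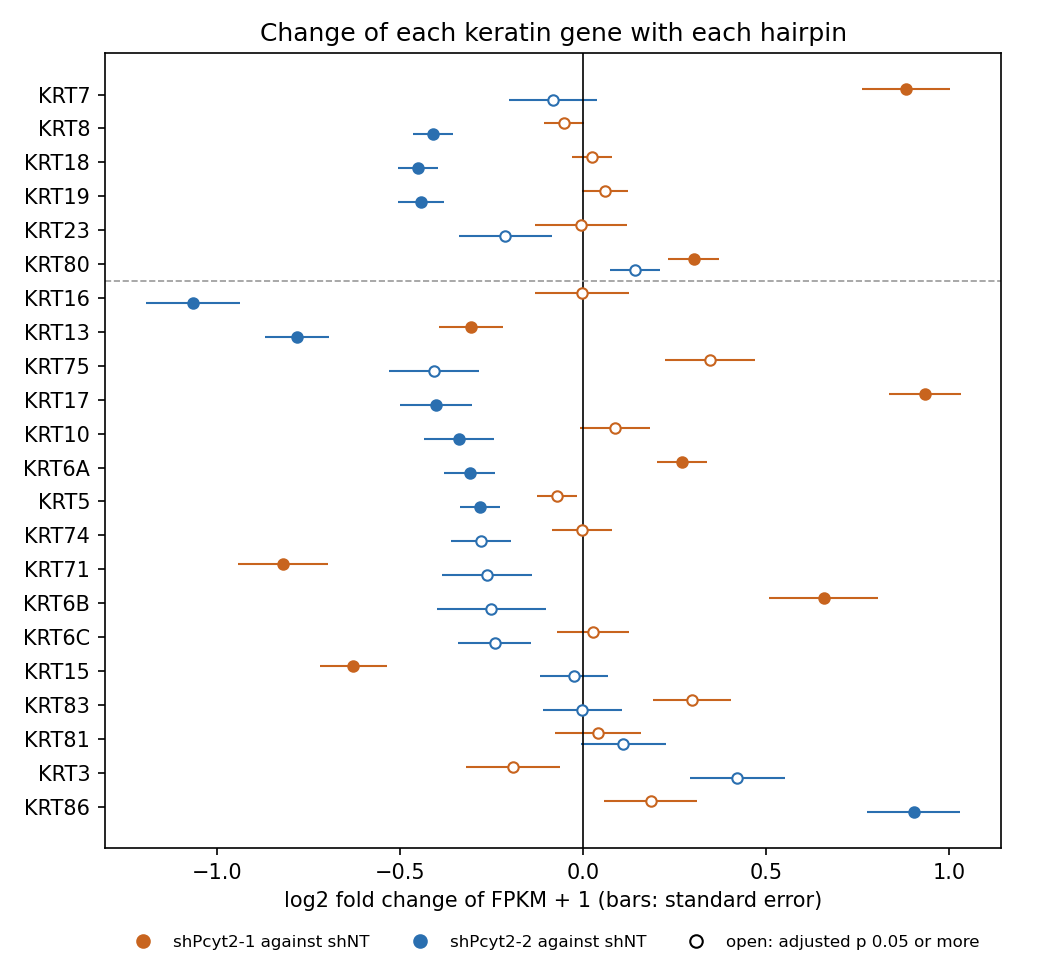
Log2 fold change of FPKM + 1 against shNT, with its standard error, for the 6 tested members (above the dashed line) and the 16 other tested keratin genes, ordered by the shPcyt2-2 value. Filled points had a limma adjusted p under 0.05. KRT8, KRT18 and KRT19 lie together at about -0.4 with shPcyt2-2 and near 0 with shPcyt2-1, and KRT7 lies beside KRT17 at about 0.9 with shPcyt2-1.

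KRT13, a type I keratin of mucosal stratified epithelia, was the only tested keratin called lower with both hairpins. It fell by 0.31 with shPcyt2-1 (limma adjusted p = 0.0312) and by 0.78 with shPcyt2-2 (limma adjusted p = 0.00247). The call with shPcyt2-1 was lost without the first shNT library and without either shPcyt2-1 library. Also called were KRT15 and KRT71, which fell by 0.63 and 0.82 with shPcyt2-1, KRT10, which fell by 0.34 with shPcyt2-2 (limma adjusted p = 0.0495), and KRT86, a hair keratin that rose by 0.90 with shPcyt2-2 (limma adjusted p = 0.00560). KRT71 was at 1.07 and 0.990 FPKM with shNT and at 0.180 and 0.119 FPKM with shPcyt2-1. That is 14.5% of shNT, a fall that the log2(FPKM + 1) scale understates. With shPcyt2-2 KRT71 was at 0.860 and 0.541 FPKM, below both shNT libraries, but was not called (limma adjusted p = 0.181). The call of KRT10 was lost in 5 of the 6 fits that left out a library. KRT81 and KRT83, close relatives of KRT86, were not called with either hairpin. KRT81 lies within the span of KRT86 on the opposite strand. Both were highest in the second shPcyt2-2 library, at 46.7 FPKM for KRT81 and 15.6 FPKM for KRT86. Whether reads were shared between them was not tested. KRT3, KRT6C, KRT74 and KRT75 were not called against shNT either.

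Among the 22 tested keratins, members included, 5 rose and 3 fell with shPcyt2-1, and 1 rose and 9 fell with shPcyt2-2. That is 36.4% and 45.5% of the tested keratins, beside 26.7% and 12.4% of all tested genes. By type, 6 of 8 type I keratins and 3 of 14 type II keratins fell with shPcyt2-2, and the medians were -0.42 and -0.25. With shPcyt2-1, 1 of the 8 type I genes rose and 2 fell, and 4 of the 14 type II genes rose and 1 fell. Between the hairpins, 17 of the 22 were called, 13 of them lower with shPcyt2-2, beside 27.1% of all tested genes, 14.2% lower. With no expression limit 1 keratin, KRT13, was called with shPcyt2-2 in place of 10, so that the calls of KRT16 and KRT86 were lost as well, and with no variance trend 6 were called, 1 higher and 5 lower. The calls against shNT also rest on single libraries in part. Without the first shPcyt2-2 library, 3 keratins were called with shPcyt2-2, KRT13 and KRT16 lower and KRT86 higher, where the calls over all genes went from 1585 to 125. Without the first shPcyt2-1 library 4 were called with shPcyt2-1, and without the second 5, with KRT7, KRT15, KRT17 and KRT71 in both, where the calls over all genes went from 3400 to 1160 and 1848. Some neighbouring keratin genes, such as KRT6A, KRT6B and KRT6C, share sequence, so the 22 cannot all be taken as independent members.

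The genes that resembled the members most closely in pattern over the 6 libraries were found among 7616 genes with a mean of at least 5 FPKM (7615 where the member was itself one of them), by Pearson's r of log2(FPKM + 1). For KRT7 they were GAPDH, a glycolytic enzyme (r = 0.998), and ANXA2, a calcium-dependent membrane-binding protein (r = 0.997). GAPDH, at 3093 and 3004 FPKM with shNT, was at 3630 and 3663 FPKM with shPcyt2-1 and 2865 and 3041 FPKM with shPcyt2-2, so that it was high in the same 2 libraries as KRT7 though far more abundant. For KRT18 ZNF746, a zinc-finger protein, was among them (r = 0.994), and for KRT19 SLC25A25, a mitochondrial carrier (r = 0.997). SLC25A25 averaged 12.3 FPKM with shNT, 12.6 FPKM with shPcyt2-1 and 9.86 FPKM with shPcyt2-2, lowest in the same 2 libraries as KRT19. With 6 libraries such values are common: 439 genes had an r over 0.9 with KRT7, 386 with KRT18 and 377 with KRT19. KRT8, KRT20, KRT23 and KRT80 spanned less than 0.5 on the log2 scale and were not compared in this way.

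Of 20 genes for proteins that bind keratin filaments or join them to desmosomes and hemidesmosomes, 19 were tested. With shPcyt2-1, 2 rose and 5 fell, and with shPcyt2-2, 1 rose and 1 fell, with medians of -0.11 and -0.098, beside 26.7% and 12.4% of all tested genes called. The most abundant by mean level, JUP (plakoglobin, at 181 and 187 FPKM with shNT) and ITGB4 (integrin beta 4, at 181 and 194 FPKM with shNT), were called with neither hairpin. ITGA6, the alpha chain that pairs with ITGB4 in hemidesmosomes, rose by 0.49 with shPcyt2-1 (limma adjusted p = 0.00269) and also, by 0.33, with shPcyt2-2 (limma adjusted p = 0.0231). DSP, the desmosomal plakin to which keratins attach, fell with shPcyt2-1 by 0.42 (limma adjusted p = 0.00655). EPPK1 (epiplakin) fell by 0.43 with shPcyt2-1 (limma adjusted p = 0.0256), and PPL (periplakin) by 0.44 with shPcyt2-2 (limma adjusted p = 0.0143). The calls of EPPK1, of PPL and of ITGA6 with shPcyt2-2 were each lost in 4 of 13 alternatives, among them the one without the second shNT library. The value of EPPK1 with shPcyt2-1 ranged from -0.59 to -0.26 over its alternatives. In the libraries of shPcyt2-2, where the 3 abundant keratins were lowest, DSP was at 51.6 and 44.4 FPKM beside 49.0 and 51.3 FPKM with shNT.

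**Figure D4:**
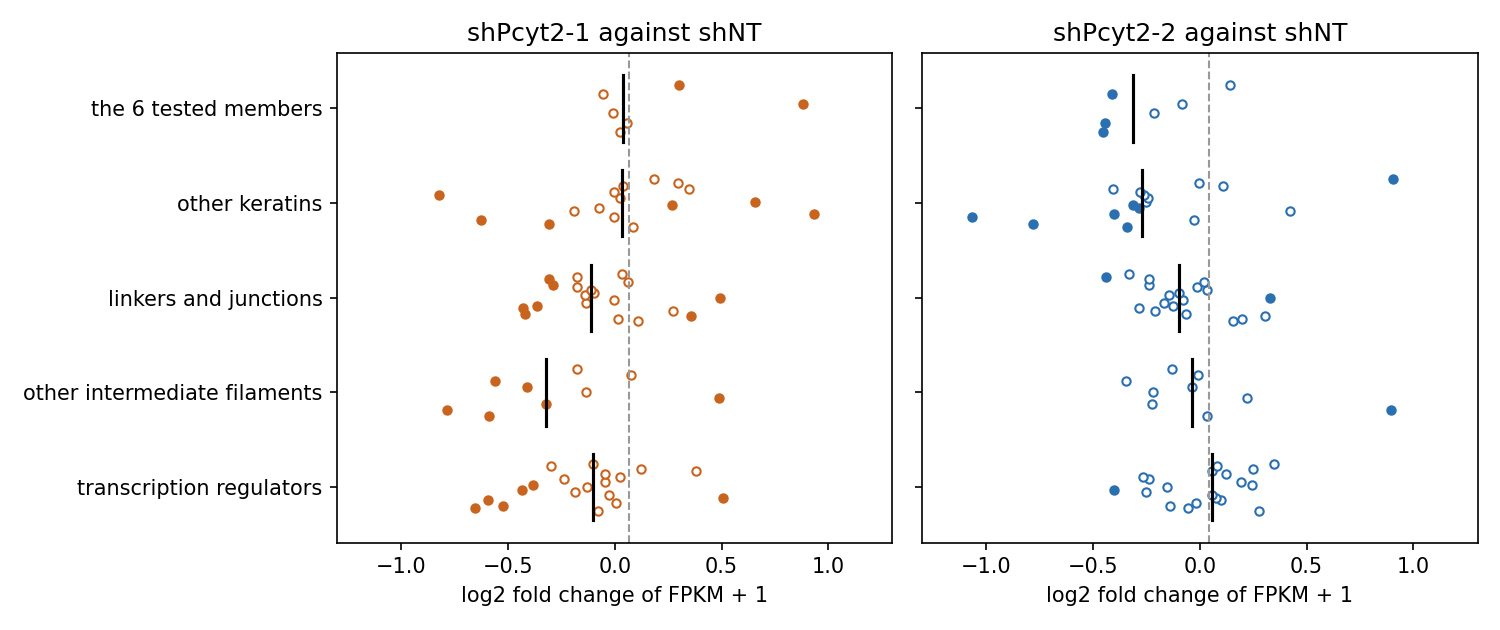
Log2 fold change of FPKM + 1 against shNT for each tested gene of 5 lists, with shPcyt2-1 on the left and shPcyt2-2 on the right. Filled points had a limma adjusted p under 0.05, black bars mark the median of the list and the dashed line marks the median of all tested genes. With shPcyt2-2 the medians of the tested members (-0.31) and of the other keratins (-0.27) lie left of all the other lists drawn.

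The labelled cell type was checked against markers. Of 17 colon epithelium markers, EPCAM was highest, at 269 FPKM with shNT, followed by TFF3 at 74.7 FPKM and VIL1 at 39.0 FPKM, and CDX2 was at 16.2 FPKM. PHGR1 was at 29.6 FPKM. Of the 17, 6 were under the limit of 0.5 FPKM. With shNT, MUC2 was at 0.206 FPKM, GPA33 at 0.178 FPKM, CEACAM5 at 0.263 FPKM and ALPI at 0.261 FPKM, and SLC26A3 was not listed. FABP1 averaged 0.207 FPKM there, from 0.415 FPKM in the second shNT library, and was not listed above 0 in any other library. Of the 11 tested, 4 fell with shPcyt2-1 (CDX2, TFF3, PHGR1 and LGALS4), and with shPcyt2-2 CDH17 rose and TFF3 and PHGR1 fell, beside 26.7% and 12.4% of all tested genes called. All 3 calls with shPcyt2-2 were lost without the second shNT library and without the first shPcyt2-2 library, and those of TFF3 and PHGR1 also without the second. That of TFF3 was lost without either shPcyt2-1 library as well. The call of LGALS4 was lost without the second shNT library or the first shPcyt2-1 library. The list summed to 443 to 459 FPKM with shNT, 443 to 457 FPKM with shPcyt2-1 and 437 to 476 FPKM with shPcyt2-2. These sums overlapped between the groups. EPCAM alone held 258 to 312 FPKM of them and was called with neither hairpin, so the overlap says little about the other markers.

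Markers of other cell types were mostly low. COL1A1, LUM, CD14 and CD68 were the 4 of these genes at a mean of at least 0.5 FPKM. The 6 fibroblast markers summed to 2.25 and 2.44 FPKM with shNT, 3.62 and 4.10 FPKM with shPcyt2-1, and 3.78 and 3.56 FPKM with shPcyt2-2. Their most abundant gene was COL1A1 with shNT and shPcyt2-2 and LUM with shPcyt2-1. COL3A1 was not listed, and COL1A2 was not listed above 0 in either shNT library. LUM rose with shPcyt2-1, where KRT7 did, by 0.81 (limma adjusted p = 0.00192), from 0.789 and 0.863 FPKM to 2.17 and 2.24 FPKM. Its part in the keratin values was not tested. The 4 endothelial markers summed to at most 0.769 FPKM, with CDH5 the most abundant. The 6 leukocyte markers summed to between 17.1 and 23.7 FPKM, of which CD68, a lysosomal protein that many cells express, held 15.99 to 22.7 FPKM, while PTPRC was not listed.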

How the data were processed

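RNA-Seq of 6 SW480 libraries was used, 1 table per library. The authors deposited values per Ensembl identifier that were read as FPKM: they hold decimals, with library sums from 396467 to 402612, and TPM over part of the genes cannot be told apart from that. Only genes above 0 are listed. The aligner and quantifier are not given in the sources used here. The submitters' processing notes name GRCm38, mm10 and GRCh38 with no role, and the labels name 2 library kits for every sample. The depth in reads cannot be read from these values, and precision is limited by the 2 libraries per group. The paper's methods name DESeq, a count test, in whose place limma was used because the values are not counts.

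Of 21539 identifiers, 19504 were in GENCODE release 29 (GRCh38), whose names and coordinates were used. Within a library, repeated rows were summed (115 identifiers). Identifiers with identical values in every library, above 0 in at least 2 of them, were merged (1045 groups). Genes with a mean of at least 0.5 FPKM entered limma (version 3.58.1, R 4.3.3) as log2(FPKM + 1). The moderated test was two-sided, allowed a mean-variance trend and used Benjamini-Hochberg adjustment over all 12756 tested genes and a threshold of 0.05. Single hairpins and their difference came from a fit with 3 groups, and the pooled comparison from a fit of 4 knockdown libraries against 2 shNT libraries. The code was tested on simulated data, where false calls made up more of the calls in every comparison than the threshold aims at. The share of false calls was highest for shPcyt2-1 against shNT. It came from a single draw that changed fewer genes with shPcyt2-1 than with shPcyt2-2, so it does not rank the comparisons of the real data. Intervals are 95% and not adjusted. Genes named were the 7 members, every other tested keratin, and of other lists the 2 most abundant genes and up to 4 with the largest change among those called. Of the marker lists, genes were named to show which markers were present, absent or called. For each member whose log2 level spanned at least 0.5, genes of like pattern were named, and 1 of these genes and some sequences are not reported here. The members and lists were chosen with earlier results of these data known. Alternatives covered the pseudocount, the expression limit, scaling, the variance trend, repeated rows, the replicate number as a block, the grouping of the hairpins and each library left out. Figures were drawn with matplotlib 3.10.9.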

Additional observations from a re-analysis of the deposited data

Results flagged for a closer look

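Of the 6 tested keratins, 4 differed between the hairpins when the difference itself was tested with limma, beside 27.1% of all tested genes. KRT7 was at -0.97 on the log2 scale (shPcyt2-2 minus shPcyt2-1), KRT8 at -0.36, KRT18 at -0.47 and KRT19 at -0.50. PCYT2 itself differed between the hairpins by -0.15, which did not pass the test (limma adjusted p = 0.309). In KRT8, KRT18 and KRT19 both shPcyt2-2 libraries stood apart from the other 4, and in KRT7 both shPcyt2-1 libraries did. Groups of 2 libraries are too small to look for single libraries that lie apart.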

How the results depend on the processing

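Of 314 values of single members under the alternatives, 291 kept their direction and their side of the threshold, 10 lost the call, 5 gained one and 8 changed sign, all 8 in values that were not called. KRT18 with shPcyt2-1 changed to -0.051 after median-ratio scaling and to -0.030 without shNT replicate 1, and KRT19 with shPcyt2-1 to -0.015 after scaling. KRT23 with shPcyt2-1 changed to 0.14 without shNT replicate 2 and to 0.16 without shPcyt2-1 replicate 2, and pooled to 0.038 without shNT replicate 2. KRT7 with shPcyt2-2 changed to 0.010 without shNT replicate 1 and to 0.054 without shPcyt2-2 replicate 1. Over the libraries left out one by one, these 4 values ranged from -0.030 to 0.075 (KRT18), -0.17 to 0.16 (KRT23), -0.26 to 0.038 (KRT23 pooled) and -0.22 to 0.054 (KRT7). Members called with shPcyt2-1 numbered 1 with an expression limit of 5 (KRT80, since KRT7 is under it), 1 after scaling (KRT7) and 1 to 2 with a library left out. Members called with shPcyt2-2 numbered 0 with no expression limit, where more low genes enter the adjustment, and 0 to 3 with a library left out, the 0 without shPcyt2-2 replicate 1. In both cases 3 had an unadjusted p under 0.05. Between the hairpins, the call of KRT8 was lost with no expression limit (limma adjusted p = 0.0515). Pooled, 0 became 5 with the mean of both hairpins from the fit with 3 groups.

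Over all genes, 3400 were called with shPcyt2-1 (1844 with no expression limit, 1160 to 3355 with a library left out) and 1585 with shPcyt2-2 (124 with no expression limit, 1027 with no variance trend, 125 to 1892 with a library left out). Between the hairpins 3463 were called (1674 to 3783 with a library left out). Pooled, 1 gene was called, RGPD6 (0 with a pseudocount of 0.1 or a limit of 5, 7 with no limit, 2142 with the mean from the fit with 3 groups, 0 to 1 with a library left out). Median-ratio scaling turned the split from 2109 higher and 1291 lower to 1475 and 1714 with shPcyt2-1, from 981 and 604 to 760 and 848 with shPcyt2-2. It moved the median of all genes by -0.061 and -0.043. The causes were not tested.

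The libraries share replicate numbers, but nothing in the labels pairs them, and the correlations of the deviations of same-numbered libraries were 0.0027, 0.062 and 0.19. With the replicate number as a block, 3884, 2029 and 3869 genes were called with shPcyt2-1, with shPcyt2-2 and between the hairpins, and 0 pooled, where 1912 had an unadjusted p under 0.05. The same members were called as without the block.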

Other observations

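Among 15 genes of other intermediate filaments, which are not keratins, 9 were tested. With shPcyt2-1, 1 rose and 5 fell, with a median of -0.32, and with shPcyt2-2, 1 rose and none fell, with a median of -0.038, beside 26.7% and 12.4% of all tested genes called. LMNA, the A-type lamin of the nucleus and the most abundant, was at 178 and 203 FPKM with shNT and fell by 0.32 with shPcyt2-1 (limma adjusted p = 0.0147), while LMNB1, a B-type lamin, rose by 0.49 (limma adjusted p = 0.0102). VIM, the vimentin of mesenchymal cells, was at 86.5 and 83.6 FPKM with shNT and was called with neither hairpin. DES, the desmin of muscle, was at 1.19 and 1.39 FPKM with shNT, 0.343 and 0.314 FPKM with shPcyt2-1, and 3.28 and 3.24 FPKM with shPcyt2-2. It fell by 0.78 with the first hairpin (limma adjusted p = 0.00187) and rose by 0.90 with the second (limma adjusted p = 0.00296). PRPH and BFSP1, which averaged 2.27 and 2.65 FPKM with shNT, fell with shPcyt2-1 by 0.56 and 0.59. Each was at 53.7% of shNT there, a fall that the log2(FPKM + 1) scale understates at such low levels. The calls of LMNA and PRPH were lost without the second shNT library, without the first shPcyt2-1 library and with no expression limit, and that of LMNB1 with no expression limit.

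Of 23 transcription factors known from epithelial genes, 19 were tested. With shPcyt2-1, 1 rose and 5 fell, and with shPcyt2-2, none rose and 1, HNF4A, fell. The median was -0.10 and 0.058, and 26.7% and 12.4% of all tested genes were called. KLF5, the most abundant beside CEBPB, was at 117 and 113 FPKM with shNT and was called with neither hairpin. CDX2, which specifies intestinal epithelium, was at 15.5 and 16.9 FPKM with shNT, 10.01 and 9.88 FPKM with shPcyt2-1, and 16.03 and 15.1 FPKM with shPcyt2-2. It fell by 0.65 with shPcyt2-1 (limma adjusted p = 0.00138), and ELF3 and CEBPB fell there by 0.60 and 0.52. FOSL1, a subunit of AP-1, rose with shPcyt2-1 by 0.51 (limma adjusted p = 0.00269). HNF4A falls outside the rule for named genes and was chosen after its value was seen. It fell with both hairpins, by 0.43 with shPcyt2-1 (limma adjusted p = 0.00505) and by 0.40 with shPcyt2-2 (limma adjusted p = 0.0144). The call with shPcyt2-1 held under all 13 alternatives run for it. The call with shPcyt2-2 was lost without the second shNT library and without either shPcyt2-2 library.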
